A study of Mus with 12 samples.

Results

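The genes described here are 10 receptors of blood phagocytes: Trem1, Trem3, Treml2 and Treml4 of the TREM family, the leukocyte immunoglobulin-like receptor gene Lilra6, and the C-type lectin receptor genes Clec4d, Clec4e, Clec7a, Clec4a2 and Clec12a. They were chosen by gene name, with earlier results of these data known. All 10 were found among the 25247 genes of the blood table, each under 1 identifier. The table comes from RNA sequencing of whole blood taken on day 30 from 12 female BALB/c mice that were 6 weeks old at the start, with 1 library per mouse and 3 mice in each of 4 groups. Solvent mice received only the acetone and olive oil vehicle on shaved skin. DNCB mice were sensitised with 1% 2,4-dinitrochlorobenzene and then challenged repeatedly with 0.5%, which gives a skin inflammation resembling atopic dermatitis (AD). Mice of the scMSC and scivMSC groups were given the same DNCB and, in addition, 2000000 human umbilical cord mesenchymal stem cells (MSC) per dose. In scMSC the whole 100 μL went under the skin, and in scivMSC 50 μL went under the skin and 50 μL into the tail vein. Every MSC-treated mouse had received DNCB, so the comparisons of these groups with DNCB concern the cells, and those with Solvent concern DNCB and the cells together. No group received cells without DNCB, no sham injection of the DNCB mice is described in the sources used here, and the injected cells were human cells in mice with an intact immune system.

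Receptors of this kind let neutrophils, monocytes and dendritic cells sense microbes and damaged tissue. Most of the activating ones have no signalling motif of their own. They pair with a small membrane adaptor, either Tyrobp (also called DAP12) or Fcer1g (the Fc receptor gamma chain), which recruits the kinase Syk, and Card9 carries the signal on to NF-κB and cytokine genes. Inhibitory members of the same families carry their own motif and recruit the phosphatases Ptpn6 and Ptpn11. Trem1 amplifies inflammatory responses of neutrophils and monocytes through Tyrobp, and Pglyrp1, a peptidoglycan recognition protein of neutrophil granules, is a known Trem1 ligand.

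Genes of 1 family lie together in the genome. On chromosome 17, Trem1 (ENSMUSG00000042265, 48232768 to 48246924), Trem3 (ENSMUSG00000041754, 48247777 to 48258841), Treml4 (ENSMUSG00000051682, 48264295 to 48275360) and Treml2 (ENSMUSG00000071068, 48299498 to 48312533) all lie on the plus strand. On chromosome 6, Clec4a2 (ENSMUSG00000030148, 123106428 to 123143999, plus strand), Clec4d (ENSMUSG00000030144, 123262111 to 123275265, plus strand) and Clec4e (ENSMUSG00000030142, 123281789 to 123289870, minus strand) form a cluster. Clec12a (ENSMUSG00000053063, 129342691 to 129364416, plus strand) and Clec7a (ENSMUSG00000079293, 129461591 to 129472779, minus strand) lie further along the same chromosome. Lilra6 (ENSMUSG00000030427) is on the minus strand of chromosome 7, from 3908280 to 3915503. These whole-gene positions are those of the deposited table. They overlap the RefSeq positions on assembly GRCm38.p6 for all 10 receptors and for 99.944% of the 21414 genes compared, although the submitters' processing notes list mm8. Trem1 shares bases with Gm18679 on the opposite strand and Clec4a2 with Gm44132 on the same strand, and whether reads were counted by strand is not given in the sources used here. Lilra6 and Clec4a2 have near-identical relatives, the Pira genes and the other Clec4a genes, so their reads may be split among copies and their values are uncertain.

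The libraries held between 52179764 (scMSC replicate 1) and 65139421 (Solvent replicate 3) summed estimated counts. Haemoglobin genes took between 91.3% and 95.6% of the summed FPKM (fragments scaled to gene length and library size, the deposited level). Of all counts from 1 to 12, 54.8% were 4, 8 or 12, so 1 fragment may be worth about 4 counts, and the libraries would then hold 13044941 to 16284855 fragments. The receptor with the fewest counts was Clec12a in scivMSC replicate 2, with 22 counts, or 5.5 fragments on that reading, so its low values carry a large counting error. The lowest summed FPKM of the 10 receptors was 15.0 in scivMSC replicate 2 and the highest was 150.1 in DNCB replicate 2. Only genes whose FPKM reached 1 in 3 or more libraries were tested, 5527 in all. All 10 receptors passed, but Clec4e, Clec4a2 and Clec12a reached an FPKM of 1 only in the 3 DNCB libraries, and Treml4 only in those and 2 Solvent libraries. A receptor that passed because of DNCB had to be high there. The counts called under total-count scaling in the main comparisons that involve DNCB are therefore given with and without these 4 receptors. The medians, the counts without overlap and the counts under TMM scaling include them, so those values are in part set by the filter.

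Trem1 was at an FPKM of 1.11, 1.32 and 0.76 in the Solvent libraries, 8.67, 12.7 and 8.85 in DNCB, 1.92, 1.71 and 2.28 in scMSC, and 1.39, 0.791 and 1.2 in scivMSC. All 3 DNCB libraries stood above the other 9, and scMSC lay above Solvent and scivMSC without overlap. Trem3, a mouse receptor that also pairs with Tyrobp, was at 1.92, 1.41 and 1.42 in Solvent, 15.6, 23.9 and 14.04 in DNCB, 1.57, 1.11 and 1.82 in scMSC, and 1.35, 0.678 and 1.44 in scivMSC. Its DNCB libraries again lay above all others, while Solvent, scMSC and scivMSC overlapped. Treml4, carried by Ly6C-low monocytes and some macrophages and dendritic cells, was at 1.52, 1.01 and 0.649 in Solvent, 2.10, 3.91 and 1.78 in DNCB, 0.911, 0.765 and 0.956 in scMSC, and 0.204, 0.251 and 0.345 in scivMSC. Each scivMSC library lay below every library of the other groups for this gene.

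Lilra6 encodes an activating receptor that uses Fcer1g. Its FPKM was 1.47, 1.21 and 0.652 in Solvent, 5.96, 9.83 and 6.30 in DNCB, 0.924, 1.94 and 1.40 in scMSC, and 0.892, 0.158 and 0.649 in scivMSC. The DNCB libraries did not overlap with the rest, and scivMSC replicate 2 was far below the other libraries. Clec4d and Clec4e encode receptors for microbial glycolipids that also depend on Fcer1g. For Clec4d the values were 3.58, 4.15 and 2.46 in Solvent, 23.8, 36.3 and 23.7 in DNCB, 5.52, 6.09 and 6.61 in scMSC, and 5.10, 2.59 and 3.08 in scivMSC. As with Trem1, scMSC lay above Solvent and below DNCB without overlap. For Clec4e they were 0.419, 0.716 and 0.284 in Solvent, 3.31, 5.32 and 3.61 in DNCB, 0.951, 0.641 and 0.387 in scMSC, and 0.461, 0.163 and 0.205 in scivMSC, so that only DNCB stood apart.

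Clec7a encodes Dectin-1, the β-glucan receptor, which carries its own motif for Syk. Its FPKM was 6.18, 4.37 and 2.93 in Solvent, 27.5, 34.0 and 25.2 in DNCB, 4.81, 4.33 and 4.74 in scMSC, and 2.01, 0.369 and 1.97 in scivMSC. DNCB was above all other libraries and scivMSC below all others. Clec4a2 and Clec12a encode inhibitory receptors. Clec4a2 was at 0.683, 0.18 and 0.19 in Solvent, 3.45, 6.57 and 4.23 in DNCB, 0.515, 0.593 and 0.408 in scMSC, and 0.242, 0.16 and 0.284 in scivMSC. Clec12a was at 0.583, 0.457 and 0.215 in Solvent, 2.58, 3.87 and 3.05 in DNCB, 0.399, 0.415 and 0.254 in scMSC, and 0.329, 0.0673 and 0.201 in scivMSC. Both inhibitory receptors were high in DNCB alone, and their other groups overlapped except for Clec4a2 between scMSC and scivMSC.

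Treml2, a receptor of B cells, neutrophils and macrophages that does not pair with Tyrobp, behaved differently from the other 9. It was at 12.1, 7.67 and 7.77 in Solvent, 12.1, 13.7 and 8.57 in DNCB, 12.2, 15.1 and 14.6 in scMSC, and 12.7, 9.82 and 12.2 in scivMSC. Its DNCB libraries fell within the range of the other groups. The ratio of the highest to the lowest group mean was 1.52 for Treml2 and between 8.23, for Clec4d, and 20.8, for Clec4a2, for the other receptors. By group mean, Treml2 was the most abundant of the 10 transcripts per length in Solvent (9.19 ± 2.55, SD, n = 3), scMSC (13.9 ± 1.53) and scivMSC (11.6 ± 1.52). In DNCB, at 11.4 ± 2.62, it ranked behind Clec7a (28.9 ± 4.56), Clec4d (27.9 ± 7.27) and Trem3 (17.8 ± 5.30). Clec7a and Clec4d did not differ beyond their spread in DNCB, nor did Treml2 and Trem1 (10.1 ± 2.28), the next in that order.

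**Figure D1:**
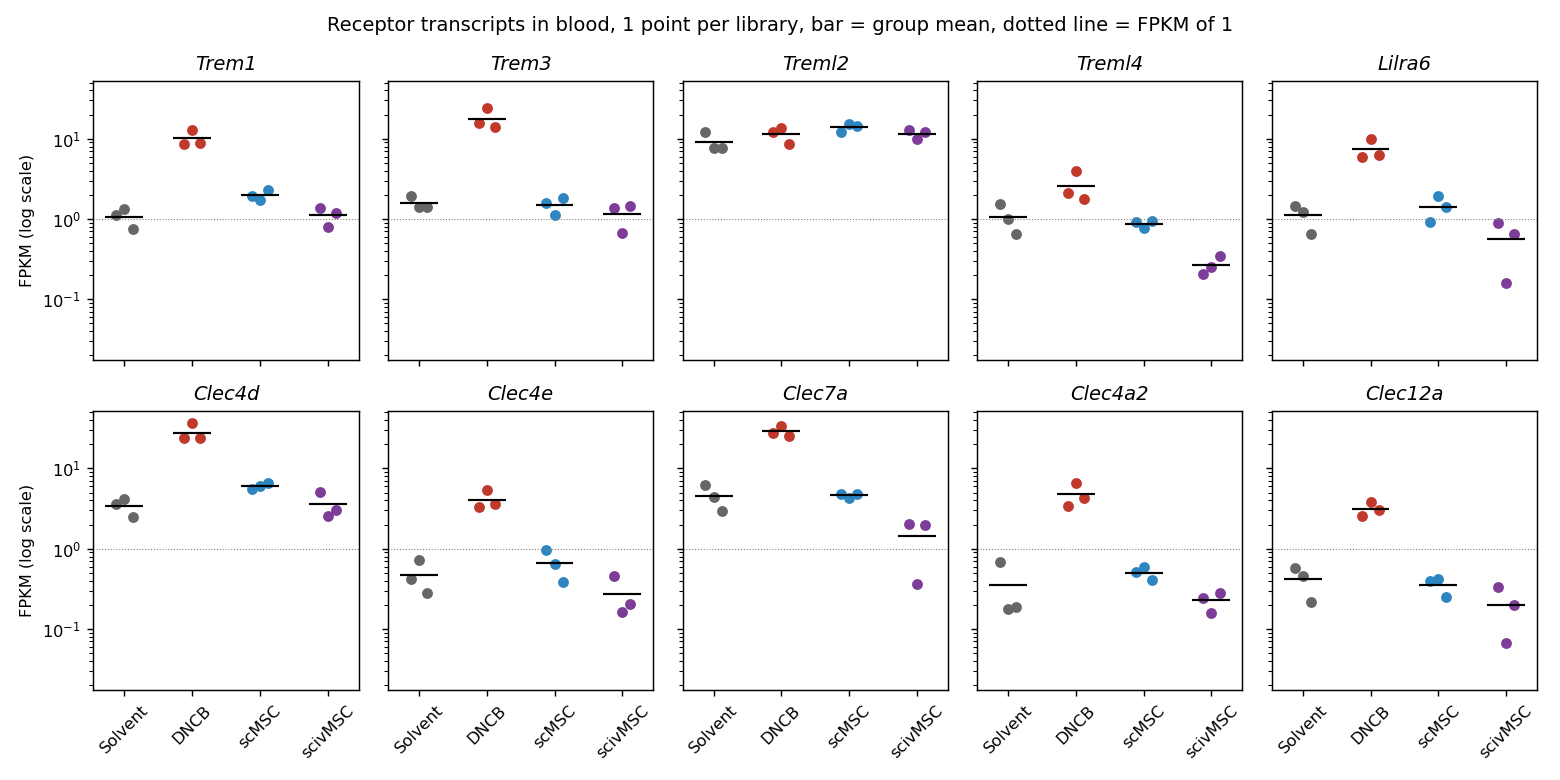
FPKM of each of the 10 receptors on a log scale (vertical axis) in the 4 groups (horizontal axis). Each point is 1 library, each bar is the mean of 3, and the dotted line marks an FPKM of 1. For 9 receptors the 3 DNCB points lie above all others, whereas the Treml2 points of all groups lie between 7.67 and 15.1.

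Setting DNCB beside Solvent addresses which receptors respond to the sensitiser. Trem1 rose 9.45-fold, Trem3 11.2-fold, Lilra6 6.57-fold, Clec4d 8.22-fold, Clec4e 8.53-fold, Clec7a 6.43-fold, Clec4a2 13.3-fold and Clec12a 7.55-fold. In all, 8 of the 10 receptors were called higher and none lower, against 15.6% of all tested genes called higher. A gene was called at a Benjamini-Hochberg adjusted p under 0.05 in edgeR's quasi-likelihood test and a fold change over 2, with libraries scaled by their total counts. Without Treml4, Clec4e, Clec4a2 and Clec12a, 5 of 6 were called. The FPKM values of 9 receptors, Treml4, Clec4e, Clec4a2 and Clec12a among them, lay above Solvent without overlap, as did those of 25% of all tested genes. The median log2 fold change of the 10 was 2.98, beside 0.06 over all tested genes. Trem1 and Lilra6 are genes that the study picked from these libraries, so their direction is not independent evidence. The receptors as a set were also chosen with earlier results of these data known.

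Trem3 had a log2 fold change of 3.49 ± 0.43 (SE; edgeR adjusted p = 2.65e-05) and Trem1 of 3.24 ± 0.36 (edgeR adjusted p = 1.15e-05). Clec4d followed at 3.04 ± 0.36 (edgeR adjusted p = 1.9e-05). The largest value, for Clec4a2, was 3.74 ± 0.54 (edgeR adjusted p = 0.000129), and rests on Solvent levels between 35 and 135 counts. Clec4e was at 3.09 ± 0.50, Clec12a at 2.92 ± 0.52, Lilra6 at 2.72 ± 0.53 and Clec7a at 2.69 ± 0.47, with edgeR adjusted p between 0.000335 and 0.00146. Treml4 was not called, at 1.28 ± 0.46 (edgeR adjusted p = 0.0591), although its 3 DNCB libraries lay above Solvent. It rested on DNCB replicate 2, without which its log2 fold change was 0.86 (edgeR adjusted p = 0.29), and it was called when Solvent replicate 1, at 1.64 (edgeR adjusted p = 0.0322), or scivMSC replicate 1 or 2 was left out. Treml2 was at 0.32 ± 0.27 (edgeR adjusted p = 0.456). Under TMM scaling, which centres the trimmed bulk of genes in place of the library total, 9 receptors were called higher, against 16.1% of all tested genes, and Treml4 was the added one at 1.13 (edgeR adjusted p = 0.0208).

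Setting scMSC beside DNCB addresses how the subcutaneous cells altered the receptors in sensitised mice. Trem3 was 11.8-fold lower in scMSC, Clec4a2 9.37-fold, Clec12a 8.88-fold, Clec7a 6.29-fold, Clec4e 6.19-fold, Lilra6 5.18-fold, Trem1 5.15-fold, Clec4d 4.63-fold and Treml4 2.96-fold. Thus 9 receptors were called lower and none higher, where 24.9% of all tested genes were called lower, and 5 of 6 were called without Treml4, Clec4e, Clec4a2 and Clec12a. The same 9 had FPKM values below DNCB without overlap, as did 49.8% of all tested genes. Their log2 fold changes ran from -3.57 ± 0.43 for Trem3 (edgeR adjusted p = 5.87e-05) through -2.36 ± 0.35 for Trem1 (edgeR adjusted p = 0.000249) to -1.56 ± 0.47 for Treml4 (edgeR adjusted p = 0.0205). Treml2 was not lower, at 0.27 ± 0.27 (edgeR adjusted p = 0.473). The 10 receptors had a median of -2.50 here, beside -0.63 for all tested genes. Under TMM scaling the receptors had a median of -1.79 and all tested genes one of 0.06, and 8 receptors were called lower, against 12.3% of all tested genes. Treml4 was the one lost, at -0.82 (edgeR adjusted p = 0.091). Its call under total-count scaling also ended without DNCB replicate 2, at -1.14 (edgeR adjusted p = 0.149), and without any 1 of the scMSC libraries (edgeR adjusted p = 0.0597, 0.0877 and 0.0602). Under TMM scaling Treml2 was at 1.00 (edgeR adjusted p = 0.00485), a fold change of 1.999, just under the limit.

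Setting scivMSC beside DNCB addresses the combined route. The same 9 receptors were lower under total-count scaling. Clec4a2 was 20.5-fold lower, Clec7a 19.8-fold, Clec12a 15.7-fold, Trem3 15.3-fold, Clec4e 14.6-fold, Lilra6 12.9-fold, Treml4 9.53-fold, Trem1 8.94-fold and Clec4d 7.78-fold. Again 9 were called lower and none higher, but 62% of all tested genes were called lower too. Without Treml4, Clec4e, Clec4a2 and Clec12a the count was 5 of 6. Here 67.9% of all tested genes lay below DNCB without overlap, as 9 receptors did. The median log2 fold change was -3.78 over the 10 receptors and -1.53 over all tested genes. Clec7a fell by 4.31 ± 0.51 on the log2 scale (edgeR adjusted p = 7.28e-06), Trem1 by 3.16 ± 0.36 (edgeR adjusted p = 6.66e-06) and Treml4 by 3.25 ± 0.51 (edgeR adjusted p = 5.04e-05). Treml2 was at 0.01 ± 0.27 (edgeR adjusted p = 0.977).

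Part of the size of these falls depended on how libraries were scaled. Under TMM scaling the median over all tested genes in scivMSC against DNCB moved to 0.04 and that of the receptors to -2.26. The same 9 receptors were still called lower, now against 18.9% of all tested genes, from -2.81 for Clec7a (edgeR adjusted p = 2.42e-05) to -1.36 for Clec4d (edgeR adjusted p = 0.000189). Treml2 was called higher under TMM scaling, at 1.69 (edgeR adjusted p = 5.92e-05), where 20.6% of all tested genes were called higher. Its FPKM values in these groups overlap, so its direction relative to DNCB is set by the scaling. The erythroid gene Alas2, which encodes the enzyme that begins haem synthesis in red cells, was at 0.06 under total-count scaling (edgeR adjusted p = 0.666) and at 1.73 under TMM scaling in the same comparison. In blood RNA fewer cells of a type and less RNA per cell cannot be told apart on either scale.

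**Figure D2:**
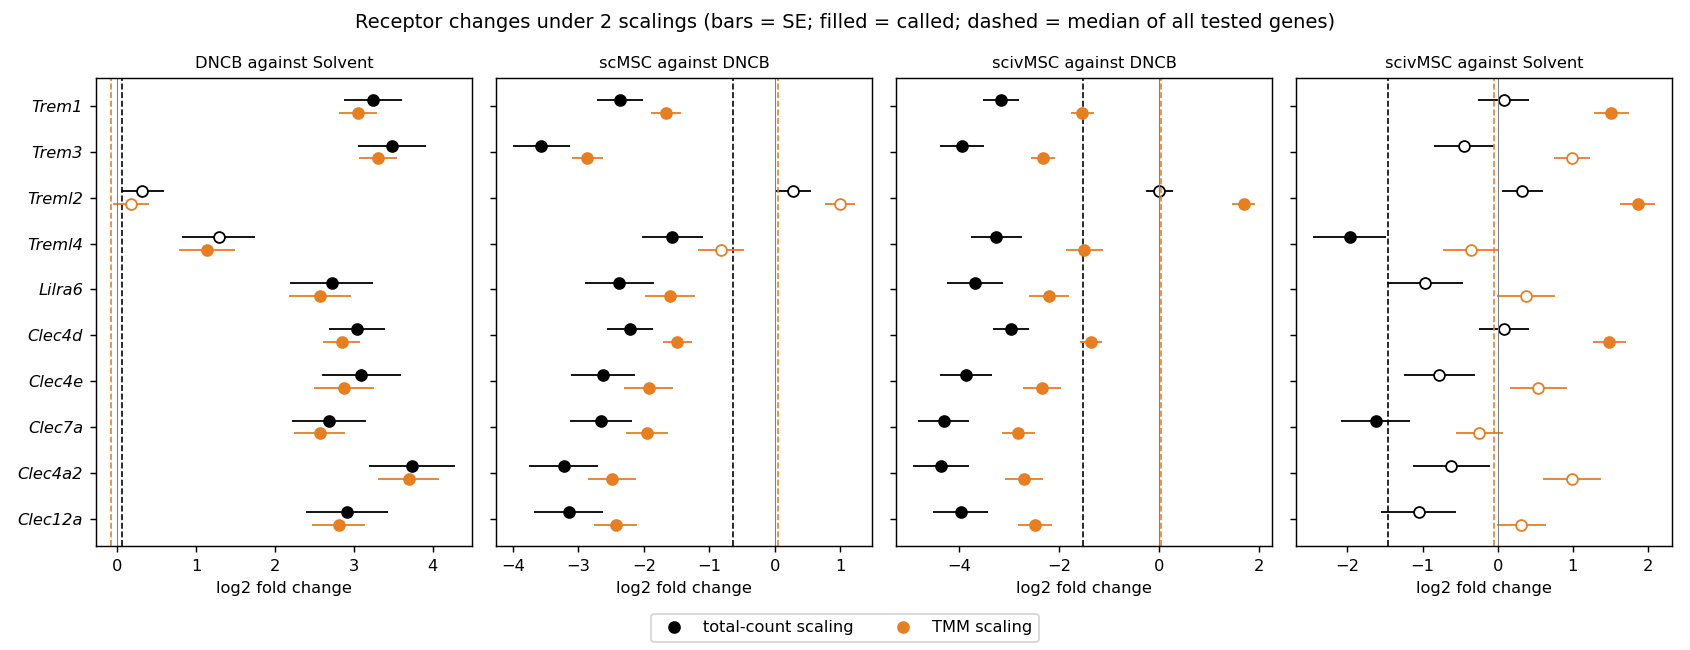
Log2 fold change (horizontal axis) of each receptor (vertical axis) in 4 comparisons, under total-count scaling (black) and TMM scaling (orange). Bars are standard errors, filled points are called genes, and dashed lines are the medians of all tested genes, which lie at -1.53 and 0.04 for scivMSC against DNCB. The 9 receptors other than Treml2 lie left of 0 on both scales when either MSC group is set against DNCB.

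Both MSC groups were also compared with each other, which asks whether the route mattered. Treml4 was 3.23-fold lower in scivMSC than in scMSC, at a log2 fold change of -1.69 ± 0.48 (edgeR adjusted p = 0.02). Clec7a was 3.15-fold lower, at -1.65 ± 0.46 (edgeR adjusted p = 0.0181). These 2 were called lower and none higher, beside 30.4% of all tested genes called lower. The values of 6 receptors lay below scMSC without overlap, as did those of 46.7% of all tested genes. Lilra6, at -1.31 ± 0.51, missed the threshold (edgeR adjusted p = 0.0588), as did Clec4e at -1.24 ± 0.48 (edgeR adjusted p = 0.0551). Trem3 differed least among the receptors that rose with DNCB, at -0.37 ± 0.40 (edgeR adjusted p = 0.487). The medians of the receptors and of all tested genes were close, at -0.97 and -0.87. Under TMM scaling no receptor was called in either direction, against 4.92% of all tested genes called lower, with Clec7a at -0.86 (edgeR adjusted p = 0.0507) and Treml4 at -0.67 (edgeR adjusted p = 0.181). In a fit of these groups alone, or without scMSC replicate 1, neither call remained. Without scMSC replicate 3 only that of Clec7a did, and without scivMSC replicate 1 the number called lower was 6. Of the 5527 tested genes, 4 were called lower in the fit of these groups alone and 502 without scMSC replicate 1. Without scMSC replicate 3 that number was 720, and without scivMSC replicate 1 it was 2925.

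Compared with Solvent, scMSC had no receptor called in edgeR, where 0.651% of all tested genes were called in either direction, and 3 receptors had an unadjusted p under 0.05. The values of 3 receptors lay above Solvent without overlap, as did those of 7% of all tested genes. They were Trem1 at 0.88 ± 0.34 (edgeR adjusted p = 0.127), Clec4d at 0.83 ± 0.34 (edgeR adjusted p = 0.139) and Treml2 at 0.59 ± 0.27 (edgeR adjusted p = 0.171). TMM scaling moved the median over all tested genes from -0.59 to -0.03. It then called 4 receptors higher, against 7.29% of all tested genes: Trem1 at 1.39, Clec4d at 1.36, Clec4a2 at 1.21 and Treml2 at 1.17, with edgeR adjusted p from 0.00256 to 0.0467. DESeq2 also called 4 higher and limma none. Of the 5527 tested genes, DESeq2 called 451 higher, limma on log2(FPKM + 1) 44 and limma on log2(FPKM + 0.1) 26.

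Against Solvent, scivMSC had 2 receptors called lower. They were Treml4 at -1.97 ± 0.49 (edgeR adjusted p = 0.00244) and Clec7a at -1.62 ± 0.46 (edgeR adjusted p = 0.00582), while 59.2% of all tested genes were called lower. The same 2 lay below Solvent without overlap, as did 62.6% of all tested genes. Trem1 and Clec4d were each at 0.08 (edgeR adjusted p = 0.841 for both), so their FPKM was near the Solvent level where most tested genes were below it, at a median of -1.47. Without scivMSC replicate 1, 5 receptors were called lower, beside 3739 of the 5527 tested genes. TMM scaling moved that median to -0.05, ended both lower calls, with Treml4 at -0.36 and Clec7a at -0.25, and called 3 receptors higher, against 22.4% of all tested genes. These were Treml2 at 1.86 (edgeR adjusted p = 5.1e-05), Trem1 at 1.51 (edgeR adjusted p = 0.000181) and Clec4d at 1.49 (edgeR adjusted p = 0.000154).

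Levels can also be set against a partner in the same library, which no library scaling changes. Tyrobp, the adaptor of Trem1 and Trem3, was at a mean FPKM of 25.3 in Solvent, 166 in DNCB, 28.8 in scMSC and 12.0 in scivMSC. Relative to Tyrobp, which was chosen as the yardstick after the values were seen and gives no test here, the receptors fell into different patterns. Trem3 was at 6.56% of the Tyrobp FPKM in Solvent, 10.6% in DNCB, 5.28% in scMSC and 10.1% in scivMSC. Its DNCB libraries, from 9.56% to 11.9%, lay above Solvent and scMSC without overlap. Clec4a2 was at 1.26%, 2.81%, 1.79% and 2.09% in the same order, with DNCB above Solvent without overlap. Clec12a was at 1.62%, 1.90%, 1.25% and 1.54%, with DNCB above scMSC without overlap. Lilra6 was at 4.39% of the Tyrobp FPKM in Solvent, 4.38% in DNCB, 5.20% in scMSC and 4.29% in scivMSC, and its groups overlapped. Clec4e was similarly flat, between 1.97% and 2.43% by group mean. Clec7a was at 17.7%, 17.5% and 16.3% in Solvent, DNCB and scMSC, and at 10.97% in scivMSC, where the libraries ran from 6.18% to 14.6% against 16.8% to 19.0% in Solvent. Against the summed FPKM of 10 neutrophil markers, described below, each receptor was instead lower in DNCB than in Solvent by group mean. Trem3 ran from 0.913% to 1.01% of that sum in DNCB and from 1.90% to 2.99% in Solvent.

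Trem1 and Clec4d were higher relative to Tyrobp in scivMSC than in DNCB without overlap, whereas the scMSC libraries overlapped with DNCB for both. Trem1 was at 4.41% of Tyrobp in Solvent, 6.03% in DNCB, 6.96% in scMSC and 10.2% in scivMSC, and its scivMSC libraries, from 8.39% to 13.3%, overlapped only with scMSC, where the highest was 8.62%. Clec4d was at 14.1%, 16.7%, 21.6% and 32.4% in the same order. Against the neutrophil sum, Trem1 was at 1.63% in Solvent, 0.552% in DNCB, 1.13% in scMSC and 0.897% in scivMSC. Clec4d was at 5.21%, 1.52%, 3.48% and 2.81% of that sum, so scivMSC lay below scMSC by group mean for both. Fcer1g, the adaptor of Clec4d, was at a mean FPKM of 8.62, 54.8, 8.65 and 6.18 in the same order. Ratios to Fcer1g were not taken. The ratio of Clec4d to Trem1 itself was steady, with group means between 276% and 320%. Treml4 was at 4.13% of Tyrobp in Solvent and 1.52% in DNCB, where its libraries, from 1.21% to 1.94%, lay below the Solvent range of 3.72% to 4.38%. Treml4 was at 99.5% of the Trem1 level in Solvent, 25.1% in DNCB, 44.7% in scMSC and 25.1% in scivMSC. Because Treml2 itself was nearly flat while Tyrobp moved, its ratio to Tyrobp was 37.4% in Solvent, 6.89% in DNCB, 49.9% in scMSC and 110.6% in scivMSC, with no overlap between DNCB and any other group.

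**Figure D3:**
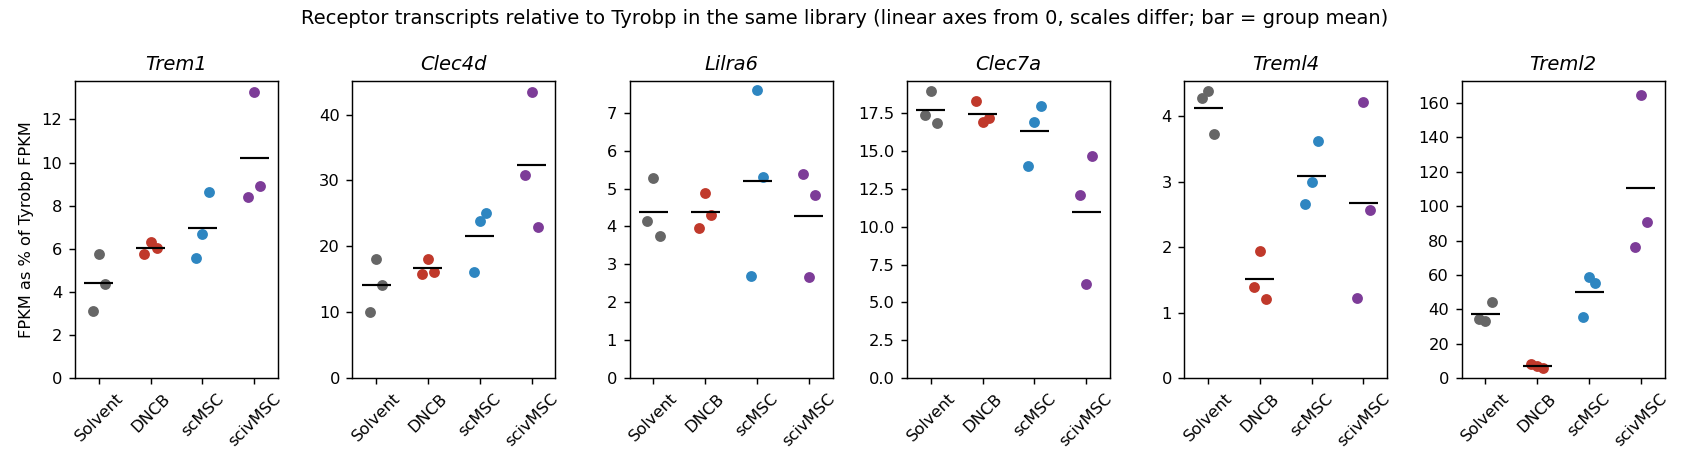
FPKM of 6 receptors as a percent of the Tyrobp FPKM of the same library (vertical axes, linear from 0, with different scales) in the 4 groups (horizontal axes). Points are libraries and bars are means of 3. Lilra6 and Clec7a stay near 4.38% and 17.5% in Solvent and DNCB, whereas Treml2 drops to 6.89% in DNCB and Treml4 to 1.52%.

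Of 14 tested adaptor and proximal signalling genes, 9 were called higher in DNCB than in Solvent and none lower (median log2 fold change 1.53). Of all tested genes 15.6% were called higher there. Tyrobp rose by 2.71 (edgeR adjusted p = 9.34e-05), Fcer1g by 2.67 (edgeR adjusted p = 7.89e-05), Card9, which links Syk to NF-κB, by 2.79 (edgeR adjusted p = 0.000487) and Syk by 1.39 (edgeR adjusted p = 0.00601). The Src-family kinases Lyn and Fgr rose by 1.68 and 2.81. Against DNCB, 13 of the 14 were called lower in scMSC (median -1.70) and 14 in scivMSC (median -2.88), where 24.9% and 62% of all tested genes were called lower. Under TMM scaling these numbers were 7 and 9, beside 12.3% and 18.9% of all tested genes. Syk was then no longer called, at -0.88 and -0.84, and Fcer1g and Tyrobp were still called at -1.97 and -1.85 in scMSC. Fcer1g and Syk are also genes that the study names.

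Of the 3 inhibitory phosphatases, none was called higher in DNCB. Ptpn6, which dampens signalling from many of these receptors, was at 0.91 (edgeR adjusted p = 0.112). It was lower in scMSC at -1.65 (edgeR adjusted p = 0.00626) and in scivMSC at -3.13 (edgeR adjusted p = 1.7e-05) than in DNCB, the first of which was not called under TMM scaling. The lipid phosphatase Inpp5d was at 0.65 in DNCB against Solvent (edgeR adjusted p = 0.186) and at -1.56 in scivMSC against DNCB, a call that TMM scaling ended. Ptpn11 stayed between -0.06 and 0.08 in these 3 comparisons under total-count scaling, and was called higher in scivMSC than in DNCB under TMM scaling, at 1.73.

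Of 4 tested ligand genes, 3 were called higher in DNCB, all 3 of them products of neutrophils, beside 15.6% of all tested genes. Pglyrp1 was at a mean FPKM of 3.43 in Solvent and 59.8 in DNCB, with a log2 fold change of 4.12 (edgeR adjusted p = 1.15e-05). S100a8 and S100a9, the subunits of calprotectin, rose by 4.84 and 4.39. The same 3 were called lower in scMSC, at -3.51, -3.97 and -3.65, and in scivMSC, at -3.90, -4.31 and -4.22, and all 3 remained called lower under TMM scaling. Of all tested genes 24.9% and 62% were called lower in these comparisons, and 12.3% and 18.9% under TMM scaling. Hmgb1, a nuclear protein released by dying cells, was not called in any of these comparisons, but was called higher in scivMSC under TMM scaling, at 1.22.

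Among cytokine and effector genes that act downstream, 6 of 14 in the table were tested and the others, Tnf and Il6 among them, were too low. Il1b rose from a mean FPKM of 13.5 in Solvent to 84.4 in DNCB, a log2 fold change of 2.64 (edgeR adjusted p = 0.000206), and was at 17.5 in scMSC and 5.43 in scivMSC. Nlrp3, the inflammasome sensor, rose by 2.08 (edgeR adjusted p = 0.00292). These were the 2 called higher, beside 15.6% of all tested genes, and the list median was 0.97. Against DNCB 4 were called lower in scMSC and 6 in scivMSC, beside 24.9% and 62% of all tested genes. Under TMM scaling 3 and 4 were called lower, beside 12.3% and 18.9% of all tested genes. Il1b and Nlrp3 are genes the study names.

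Of 12 tested leukocyte immunoglobulin-like, Pil and Cd300 receptor genes, 11 were called higher in DNCB (median 2.62), 9 lower in scMSC (median -2.54) and 12 lower in scivMSC (median -3.95) relative to DNCB. Of all tested genes 15.6%, 24.9% and 62% were called in these directions. Under TMM scaling the numbers were 11, 9 and 11, beside 16.1%, 12.3% and 18.9% of all tested genes. Cd300lf, an inhibitory receptor of myeloid cells, rose by 3.53 (edgeR adjusted p = 7.25e-05), and Lilrb4a, also inhibitory, by 2.69 (edgeR adjusted p = 0.000255). The activating Cd300lb and the inhibitory Pirb rose by 2.81 and 2.87. Lilrb4a was at a mean FPKM of 3.08 in Solvent, 20.0 in DNCB, 3.11 in scMSC and 0.89 in scivMSC.

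Other C-type lectin genes did not rise as a group in DNCB against Solvent. Only 5 of 21 were high enough to test. Clec5a, a Tyrobp-linked receptor, was the one called higher in DNCB, at 3.34 (edgeR adjusted p = 0.000584), beside 15.6% of all tested genes. It is named here for that, after its values were seen. Against DNCB, 2 of the 5 were called lower in scMSC (median -1.89) and 4 in scivMSC (median -3.65). Of all tested genes 24.9% and 62% were called lower there. Under TMM scaling 2 and 3 were called lower, beside 12.3% and 18.9% of all tested genes, and 1 higher in each comparison. Of the 5527 tested genes, 483 and 1137 were called higher in these fits. Clec2d, a lectin that binds the NK cell receptor Klrb1 proteins, was at 0.04 in DNCB against Solvent and at -2.33 in scivMSC against DNCB (edgeR adjusted p = 5.02e-05). Clec1b, the podoplanin receptor of platelets, was at 0.41 (edgeR adjusted p = 0.31), and its mean FPKM was 9.40, 12.5, 18.4 and 18.5 in Solvent, DNCB, scMSC and scivMSC. Clec4a1 and Clec4a3, close relatives of Clec4a2, were at 0.40 and 1.00 in DNCB against Solvent (edgeR adjusted p = 0.754 and 0.181). In scivMSC against DNCB, Clec4a1 was at -4.90 (edgeR adjusted p = 0.000189) and Clec4a3 at -4.40 (edgeR adjusted p = 1.59e-05). Treml1, the TREM-like transcript of platelets, rose in DNCB by 1.18 (edgeR adjusted p = 0.00751) and was at a mean FPKM of 36.2 in scivMSC, its highest group.

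**Figure D4:**
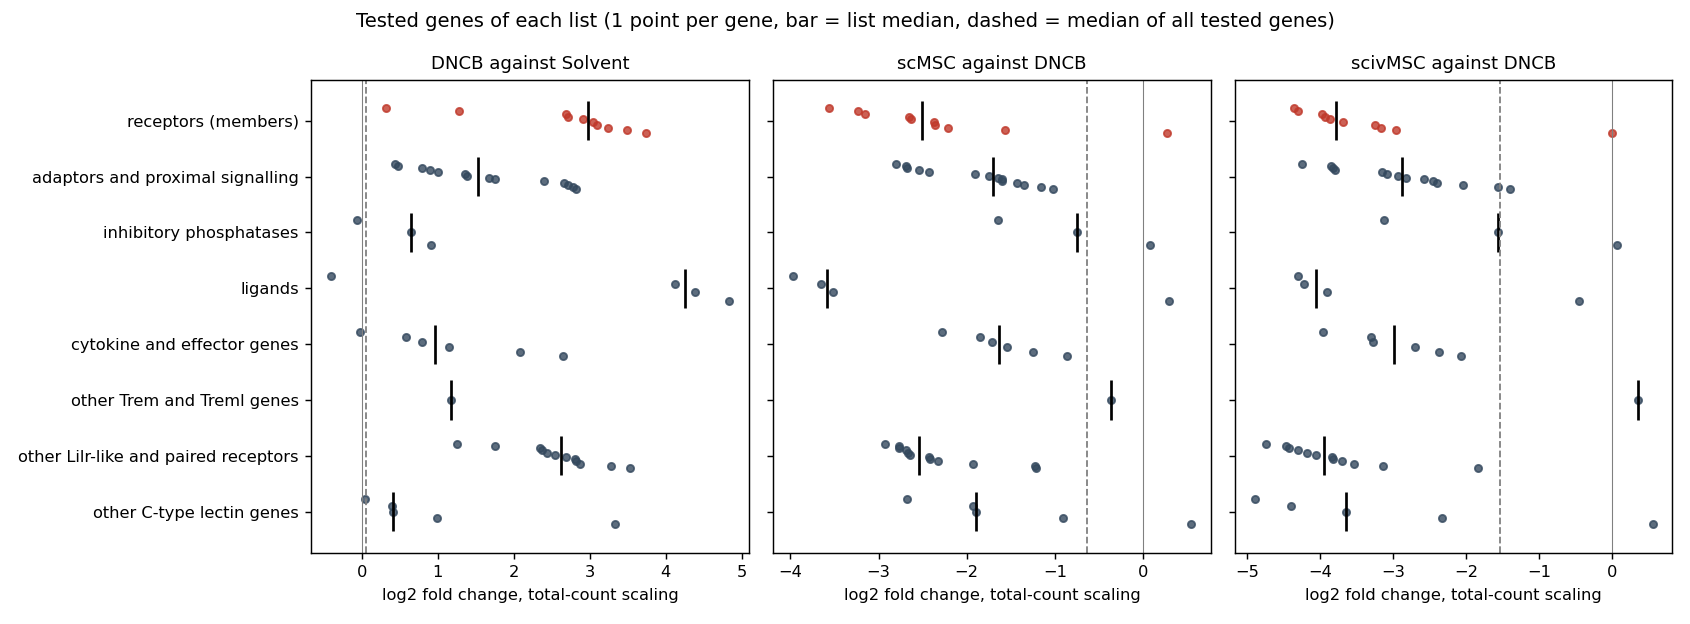
Log2 fold change under total-count scaling (horizontal axis) of each tested gene in the 10 receptors and 7 lists of related genes (vertical axis), for 3 comparisons. Each point is 1 gene, short bars are list medians and dashed lines are medians of all tested genes. The ligand list has the highest median in DNCB against Solvent, at 4.26, and the receptors have 2.98.

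Within the Trem cluster, Treml4 and Treml2 changed less than Trem1 and Trem3 in DNCB against Solvent. Within each cluster of chromosome 6, the standard errors of the receptors overlapped in that comparison. Differences between neighbours were not tested. In the Trem cluster of 79.8 kb, the 4 receptors are the tested genes, and their log2 fold changes in DNCB against Solvent were 3.24, 3.49, 1.28 and 0.32 in the order Trem1, Trem3, Treml4 and Treml2. In the Clec4 cluster of 183.4 kb, Clec4a2, Clec4d and Clec4e were at 3.74, 3.04 and 3.09, and Clec4n, which lies between the first pair, was too low to test. Between Clec12a and Clec7a, at 2.92 and 2.69 across 130.1 kb, lies Clec1b, which was not called in DNCB against Solvent or in either MSC group against DNCB. Under TMM scaling Clec1b was called higher in scMSC and scivMSC than in DNCB, at 1.24 and 2.27.

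**Figure D5:**
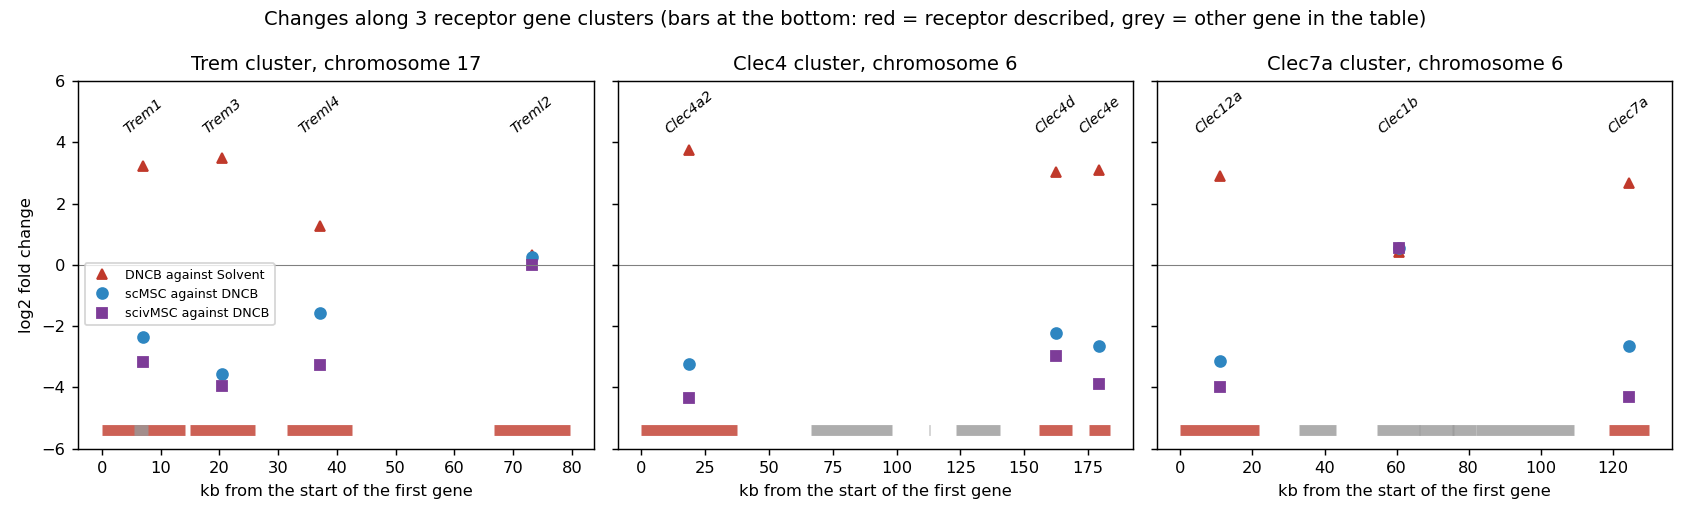
Log2 fold change under total-count scaling (vertical axis) of each tested gene along 3 receptor gene clusters, against distance in kb from the start of the first gene (horizontal axis). Triangles are DNCB against Solvent, circles scMSC against DNCB and squares scivMSC against DNCB. Bars at the bottom are gene bodies, red for the receptors described and grey for other genes. Treml2 and Clec1b lie near 0 beside neighbours that changed.

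Across the 12 libraries, log2(FPKM + 1) values of the 9 receptors other than Treml2 were alike in every pair, with Pearson's r between 0.838 and 0.994 over 36 pairs. The 9 pairs with Treml2 had r between 0.042 and 0.222. The libraries share group and haemoglobin share, so these values are descriptions. Among all tested genes other than the 10 receptors, the closest pattern to Trem1 was that of Ifit1bl2 (r = 0.997, n = 12 libraries), which was also closest to Clec4d (r = 0.995). The closest to Clec7a was the kinase gene Fgr (r = 0.997), to Trem3 Arl11 (r = 0.995), to Lilra6 Xdh (r = 0.991) and to Clec4e Mocos (r = 0.995). Rufy4 was closest to Clec12a (r = 0.994) and N4bp1 to Treml4 (r = 0.981). Treml2 was closest to Angpt1, an angiopoietin gene expressed in megakaryocytes and platelets (r = 0.951).

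Neutrophil markers moved in the same direction as most of the receptors, and markers of several other blood cell types did not. The part of any cell type in the receptor changes was not tested. The summed FPKM of 10 neutrophil markers was between 47.6 and 74.2 in Solvent, 1538 and 2456 in DNCB, 168.1 and 183.4 in scMSC, and 71.1 and 208.1 in scivMSC. All 9 tested of them were called higher in DNCB (median log2 fold change 5.72) and lower in scMSC (median -3.36) and scivMSC (median -4.02) relative to DNCB. Of all tested genes 15.6%, 24.9% and 62% were called in these directions. Retnlg, the most abundant of them, was at a mean FPKM of 20.5 in Solvent, 690.02 in DNCB, 49.9 in scMSC and 31.4 in scivMSC. Ngp, a granule protein of maturing neutrophils, was at 4.16, 451.9, 35.6 and 49.6 in the same order. Elane was at 0 in all Solvent libraries, and Mmp9 and Cxcr2 of this list are genes that the study names. Relative to that marker sum, Trem1 was lower in DNCB than in Solvent, at 0.552% against 1.63%. Thus the neutrophil markers rose more than Trem1 did.

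Monocyte markers split by subset. The summed FPKM of 6 classical monocyte markers was 8.64 to 22.5 in Solvent, 26.1 to 46.9 in DNCB, 12.7 to 13.1 in scMSC and 8.96 to 10.3 in scivMSC. Of these 6, Csf1r and F13a1 were called higher in DNCB, and 4 and 5 of the 6 were called lower in scMSC and scivMSC than in DNCB. Of all tested genes 15.6%, 24.9% and 62% were called in these directions. The sum of 7 patrolling monocyte markers was 13.2 to 25.3 in Solvent, 8.09 to 12.95 in DNCB, 9.37 to 13.97 in scMSC and 1.23 to 3.87 in scivMSC. Of the 4 tested none was called in DNCB against Solvent, though 2 were called lower there under TMM scaling and in DESeq2. Of the 5527 tested genes, 635 and 622 were called lower there in these fits. In scivMSC 4 were called lower than in Solvent (median -2.87), beside 59.2% of all tested genes (median -1.47). Under TMM scaling 2 were called lower, beside 741 of the 5527 tested genes. Treml4 and Clec7a, the receptors called lower in scivMSC than in Solvent under total-count scaling, were low in the same 3 libraries. There 62.6% of all tested genes also lay below Solvent without overlap. Neither receptor was called under TMM scaling, at -0.36 and -0.25, and a link to patrolling monocytes was not tested.

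Other cell types were represented as well. In DNCB against Solvent 7 of 8 T cell, 6 of 6 B cell and 2 of 3 tested NK cell markers were called lower, beside 269 of the 5527 tested genes. There 2 of 6 platelet markers were called higher, beside 15.6% of all tested genes. No erythroid marker of 7 was called in any comparison under total-count scaling, whereas under TMM scaling all 7, and all 6 platelet markers, were called higher in scivMSC than in DNCB and than in Solvent. Of all tested genes 20.6% and 22.4% were called higher in these comparisons. Platelet markers summed to 375 to 592 in Solvent, 557 to 770 in DNCB, 708 to 929 in scMSC and 703 to 834 in scivMSC. Of the 4 tested eosinophil and basophil markers, Mcpt8 was called higher in DNCB. No dendritic cell marker was high enough to test, with sums of at most 1.02 in any library.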

How the data were processed

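Blood RNA of 12 mice in 4 groups of 3 was sequenced, and 1 table with a column per library was analysed. The authors deposited FPKM values and whole-number estimated counts per gene. The submitters' processing notes list Bowtie 0.12.2, HISAT2 2.0, StringTie 1.3.0 and mm8 with no role; annotation and strand setting are not given in the sources used here. Library totals ran from 52179764 to 65139421 counts. Each library came from 1 mouse, so p-values measure the spread between mice.

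Genes whose FPKM reached 1 in 3 or more libraries (5527 of 25247) were fitted with edgeR 4.0.16 (R 4.3.3) on the deposited estimated counts, which were already whole and needed no rounding, with total-count scaling, all 12 libraries and a mean per group. The quasi-likelihood test was two-sided, with Benjamini-Hochberg adjustment over all tested genes. Calls needed an adjusted p under 0.05 and a fold change over 2. The standard error is the log2 fold change divided by the root of F. Comparisons with DNCB share its 3 libraries, and those with Solvent share its 3. Alternatives were TMM scaling, totals without haemoglobin genes, DESeq2 1.42.0, limma 3.58.1 on log2(FPKM + 1) and log2(FPKM + 0.1), no filter, a mean FPKM of at least 5, counts divided by 4, only the compared groups, a replicate block and each library left out. TMM scaling with the replicate block and the ratios to Tyrobp were added after seeing the data. The script was tested on simulated data. The receptors and gene lists were chosen with earlier results of these data known. Genes named were the 10 receptors, up to 4 of each list with the highest mean FPKM, and known partners. For likeness, receptors and systematic gene names were left out. The likeness result for Clec4a2 is not reported here. Il23a, Il12b, Trem5, Trem6, Pira1, Pira6, Pira12, Clec4a4, Clec4f, Klra8 and Ahsp were listed and not analysed here.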

Additional observations from a re-analysis of the deposited data

Results flagged for a closer look

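In the direct test of scivMSC against scMSC, 2 of the 10 receptors, Treml4 and Clec7a, were called lower in scivMSC, beside 30.4% of all tested genes. Treml4 was at a log2 fold change of -1.69 in scivMSC against scMSC (edgeR adjusted p = 0.02), and all 3 scivMSC libraries (FPKM 0.204 to 0.345) lay below all 3 scMSC libraries (0.765 to 0.956). Clec7a was at -1.65 (edgeR adjusted p = 0.0181), with 0.369 to 2.01 against 4.33 to 4.81. Under TMM scaling neither was called, at -0.67 and -0.86. Both calls were also lost in the fit of these groups alone (edgeR adjusted p = 0.067 for Treml4 and 0.0661 for Clec7a) and without scMSC replicate 1 (edgeR adjusted p = 0.0596 and 0.055). In those fits 4 and 502 of the 5527 tested genes were called lower. Without scivMSC replicate 2, the lowest library for Clec7a, that gene was at -1.20 (edgeR adjusted p = 0.0254). The cause was not tested.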

How the results depend on the processing

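With DNCB, calls of the 10 receptors were steady (8 to 9 in DNCB against Solvent, 8 to 9 in scMSC and 9 to 9 in scivMSC against DNCB when 1 library was left out). With a mean FPKM of at least 5, 4 receptors were tested and 3, 3 and 3 were called, then 1 in scivMSC against scMSC and 1 in scivMSC against Solvent, because fewer genes were tested. In scivMSC against scMSC, where 2 were called, TMM scaling, DESeq2, the fit of the compared groups only and TMM scaling with the replicate block gave 0, limma on log2(FPKM + 1) gave 1, and leaving out 1 library gave 0 to 6. In scMSC against Solvent, where 0 were called, TMM scaling gave 4, totals without haemoglobin genes 2, DESeq2 4, TMM scaling with the replicate block 3, and leaving out 1 library 0 to 0. Of the 5527 tested genes, 403, 180, 451 and 358 were called higher in the first 4 of these fits. In scivMSC against Solvent, where 2 were called lower, TMM scaling gave 3 and DESeq2 5, all higher, limma on log2(FPKM + 1) gave 1, and leaving out 1 library gave 2 to 5, with 5 without scivMSC replicate 1. Of the 5527 tested genes, 1240 were called higher there under TMM scaling and 1294 in DESeq2. Without scivMSC replicate 1, 3739 of them were called lower. The cause of these changes was not tested.

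Of 1344 receptor values under alternatives, 51 had the opposite sign. In scivMSC against scMSC, Trem1, Trem3, Treml2 and Clec4d were at 0.12, 0.55, 0.69 and 0.13 under TMM scaling, 0.16, 0.57, 0.73 and 0.17 in DESeq2, and 0.12, 0.54, 0.69 and 0.15 under TMM scaling with the replicate block. In scMSC against Solvent, Trem3, Treml4 and Clec12a were at 0.44, 0.31 and 0.37 under TMM scaling, 0.44, 0.30 and 0.37 in DESeq2, and 0.44, 0.30 and 0.37 under TMM scaling with the block. Totals without haemoglobin genes put Trem3 at 0.13 and Clec12a at 0.011. In scivMSC against Solvent, Trem3, Lilra6, Clec4e, Clec4a2 and Clec12a were at 0.99, 0.37, 0.54, 0.99 and 0.32 under TMM scaling, 1.01, 0.38, 0.56, 1.03 and 0.33 in DESeq2, and 0.97, 0.42, 0.61, 0.99 and 0.36 under TMM scaling with the block. With 1 library left out, Treml2 in scivMSC against DNCB ran from -0.16 without DNCB replicate 3 to 0.16. In scMSC against Solvent, Trem3 ran from -0.24 to 0.10 (higher without Solvent replicate 1 or scMSC replicate 2), Treml4 from -0.53 to 0.079 and Clec12a from -0.55 to 0.086 (both higher without Solvent replicate 1), and Clec7a from -0.20, without Solvent replicate 3, to 0.34. In scivMSC against Solvent, Trem1 ran from -0.11 to 0.28 and Clec4d from -0.26 to 0.27 (both lower without Solvent replicate 3 or scivMSC replicate 1), and Clec4a2 from -0.93 to 0.30, without Solvent replicate 1.

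Deviations from the group means were only weakly correlated between same-numbered libraries (r above 0.1 in 3 of 18 pairs, from -0.200 to 0.173). Still, 8 of 12 libraries correlated best with their own number. Whether this exceeds what unrelated libraries would give was not tested. With the replicate block, 8, 9, 9, 3, 0 and 2 receptors were called in DNCB against Solvent, scMSC against DNCB, scivMSC against DNCB, scivMSC against scMSC, scMSC against Solvent and scivMSC against Solvent, where Clec4e was the added one in scivMSC against scMSC, at -1.21 (edgeR adjusted p = 0.0437).

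Over all tested genes the count of calls moved more. It was 1133 in DNCB against Solvent (309 to 1564 over the alternatives other than left-out libraries, 788 to 1424 with 1 left out), 1445 in scMSC against DNCB (337 to 1928, 813 to 1804), 3506 in scivMSC against DNCB (532 to 5952, 3000 to 3959), 1701 in scivMSC against scMSC (4 to 2297, 512 to 2944), 36 in scMSC against Solvent (11 to 1149, 4 to 824) and 3415 in scivMSC against Solvent (485 to 7373, 2830 to 3848). TMM scaling turned 79 higher and 3427 lower calls in scivMSC against DNCB into 1137 and 1043, 864 and 269 in DNCB against Solvent into 888 and 635, 70 and 1375 in scMSC against DNCB into 483 and 681, 19 and 1682 in scivMSC against scMSC into 722 and 272, 18 and 18 in scMSC against Solvent into 403 and 67, and 143 and 3272 in scivMSC against Solvent into 1240 and 741. Depth limits the low values, with as few as 22 counts for Clec12a, 24 for Treml4 and 27 for Lilra6 and Clec4a2 in a library.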
